A study of Saccharomyces cerevisiae SK1 with 8 samples.

Results

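The widest difference in PUS1 transcript among these yeast cultures lay between cells with neither form of the pseudouridine synthase Pus1 and cells with both its native and its truncated form. The first group was the deletion strain grown with the solvent DMSO, and the second was wild type grown with the inducer anhydrotetracycline (aTC). The comparison was chosen by these labels and used 4 of the 8 libraries of the series, 2 biological replicates on each side. The other 4 libraries, 2 of the deletion with aTC and 2 of wild type with DMSO, entered the same fit and were used to split each difference. The 2 sides differ in genotype and in inducer at once, so neither factor can be read from them alone.

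All strains were MATa/alpha diploids of the SK1 background, grown with shaking in rich medium (YEPD) at 30 °C. The aTC or DMSO was given when overnight cultures were diluted, and cells were harvested 3 h later. Both strains carried his3::pTetO7.1-altPus1-3V5::HIS3, a 3V5-tagged truncated Pus1 (altPus1) behind a promoter with tet operators. At ura3 they also carried pRNR2-TetR-Tup1 and pTetO7.1-TetR with the URA3 marker. The deletion strain differed by pus1::KanMX, in which the native gene is replaced. Wild type here therefore means a strain with the native PUS1 gene that holds the same constructs, not an unmodified strain. The labels do not say how many independent transformants stand behind each strain.

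Pus1 converts uridines to pseudouridine in tRNAs, in a spliceosomal RNA and in some messenger RNAs, and other synthases act at other sites. TetR binds tet operators and is released from them by aTC, and Tup1 is a general corepressor of transcription, so TetR-Tup1 holds the construct off until the inducer is given. An aTC-treated culture thus differs from a DMSO culture by the drug, by release of the repressor and by the truncated protein, and these cannot be told apart here. The RNA was selected for polyadenylation, so pseudouridine and tRNA levels were not measured.

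Total counts per library ran from 51331492 to 61960514 over 6663 genes, of which 5932 passed the expression filter and were tested. Values are CPM, read counts divided by the TMM-scaled library size. A gene without reads could still have up to 3 reads' worth of transcript, which is 0.0491 to 0.0603 CPM depending on the library. Of the 13 haploid-specific marker genes, 4 (STE3, MFA1, MF(ALPHA)1 and RME1) stayed below 1 CPM in every library. The others passed 1 CPM in at least 1 library, with maxima from 1.45 CPM for MFA2 to 9.14 for STE2, 11.5 for HO and 22.0 for STE5. The summed CPM of all 13 was 61.2 to 64.2 in the deletion with DMSO and 54.6 to 54.9 in wild type with aTC, and its part in the results was not tested. Of 9 marker genes of meiosis, 0 stayed below 1 CPM in every library. Their summed CPM was 78.4 to 81.9 in the deletion with DMSO and 73.1 to 74.3 in wild type with aTC. Replicates differed by a median of 0.0495 on the log2 scale in the deletion with DMSO and of 0.0944 in wild type with aTC. With PUS1 left out, the first principal component (38.6% of variance) placed the deletion with DMSO at 0.355 and 1.12. It set both libraries of wild type with aTC far from each other, at -8.55 and -0.202. On the second component (19.7%) the 2 groups separated, with 8.56 and 7.45 against -5.00 and -5.16.

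PUS1 (YPL212C) lies on chromosome 16 from 149155 to 150789 by the deposited files, whose build is not named, and its reads checked the labels. The deletion with DMSO had 2 and 4 reads of the gene. Wild type with aTC had 68028 and 56790 reads, or 1124 and 1078 CPM. These levels were 20843 times those of the deletion with DMSO (95% counting interval 9576 to 56798), with the interval covering counting error only. The deletion with aTC, in which only the construct can supply the transcript, reached 771 and 905 CPM, and wild type with DMSO, with the native gene alone, had 221 and 216 CPM. Wild type with aTC therefore stood 1.31 times above the deletion with aTC and 5.05 times above wild type with DMSO. Native and construct reads are counted together, so the shares of the 2 forms within wild type with aTC were not measured. HIS3, the marker at the construct, had 0 or 1 read in every library and was not tested.

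Of the 5932 genes, 102 (1.72%) passed the edgeR quasi-likelihood test at a Benjamini-Hochberg adjusted p of 0.05. There were 50 genes (0.843% of those tested) higher in the deletion with DMSO and 52 (0.877%) lower, PUS1 among them. Few differences were large: 10 genes differed by more than 2-fold, 19 by 1.5- to 2-fold, and 73 by less than 1.5-fold. The 2 libraries of one group did not overlap the 2 of the other for any of the 102, which was also so for 53.4% of all tested genes. At an unadjusted p under 0.05 there were 1212 genes (20.4%), 601 higher (10.1%) and 611 lower (10.3%). DESeq2 called 264 of the 5587 genes it tested (4.73%), 115 higher (2.06%) and 149 lower (2.67%), and list counts below are read against these shares. At the threshold, RPL28 (log2 0.23) and CCS1 (log2 -0.31) lay just inside with an edgeR adjusted p of 0.0499, and AAD14 (log2 0.36) and RPS0A (log2 -0.24) just outside with 0.0503 and 0.0516.

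Single libraries moved this count. It was 16 without replicate 1 and 17 without replicate 2 of the deletion with DMSO, which leaves a lone library assumed to vary like the other groups. It was 55 (17 higher and 38 lower) without replicate 1 of wild type with aTC and 411 (157 higher and 254 lower) without its replicate 2. None of the 102 genes changed sign under any setting run. With library size as the only scaling, 119 genes were called, of which 91 were higher and 28 lower, so the even split between directions depended both on the scaling and on the libraries of wild type with aTC.

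**Figure D1:**
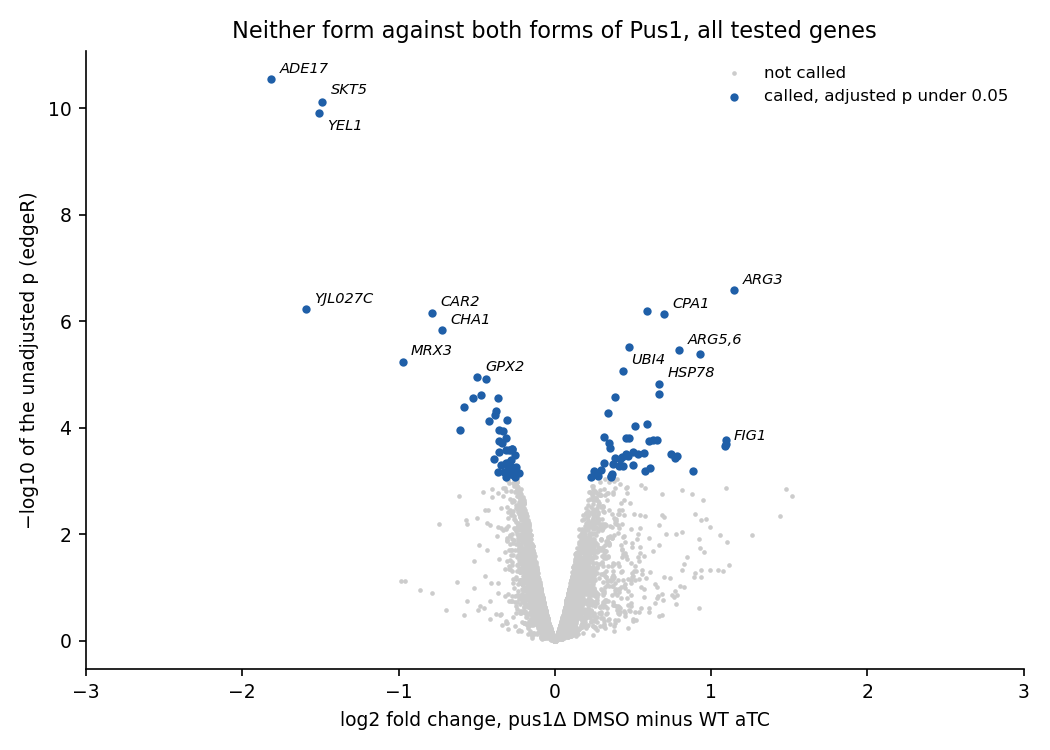
Each point is 1 of the tested genes, with its log2 fold change (deletion with DMSO minus wild type with aTC) on the x axis and the negative log10 of its unadjusted edgeR p on the y axis. Blue points passed an adjusted p of 0.05, and PUS1 and YOR203W lie beyond the x range and are left out. ADE17, SKT5 and YEL1 stand apart at the left, and ARG3 has the smallest p on the right.

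Each gene's difference can be written exactly as the sum of 2 parts estimated from all 8 libraries. The genotype part is the deletion minus wild type, averaged over both treatments, and the inducer part is DMSO minus aTC, averaged over both strains. Tested alone, the genotype part called 1260 genes (21.2% of those tested), 593 higher (10%) and 667 lower (11.2%), and the inducer part called 78 (1.31%). The median standard error was 0.0719 for the whole difference and 0.0509 for each part. The median absolute log2 difference over all tested genes was 0.0907 for the whole, 0.0947 for the genotype part and 0.0643 for the inducer part, so the whole contrast was no larger for a typical gene than its genotype part. The count for the genotype part was 557 without replicate 1 of the deletion with aTC, 284 and 99 without replicates 1 and 2 of the deletion with DMSO, and 783 without replicate 1 of wild type with aTC. Without replicates 1 and 2 of wild type with DMSO it was 781 and 750. The count for the inducer part was 32 without replicate 1 of the deletion with aTC, 20 and 24 without replicates 1 and 2 of the deletion with DMSO, and 551 without replicate 1 of wild type with aTC.

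Which part was the larger was tested gene by gene, since the difference between the parts equals the deletion with aTC minus wild type with DMSO, a comparison that shares no library with the main one. That comparison called 1222 genes (20.6%), and 50 genes were called in both, which is 49.02% of the 102 and 4.09% of the 1222. Among the 102, the genotype part was larger for 25 genes (15 higher and 10 lower in the deletion with DMSO). The inducer part was larger for 25 others (8 higher and 17 lower). For the remaining 52 (27 higher and 25 lower) the parts were not told apart. These classes rest on the test of the difference between the parts, whose count was 123 without replicate 1 of the deletion with aTC and 339 and 497 without replicates 1 and 2 of wild type with DMSO. Without replicates 1 and 2 of the deletion with DMSO it was 691 and 667. The response to aTC differed between the strains for 1 gene (0.0169%), PUS1, at an adjusted p of 0.05 by edgeR, and for 429 genes at an unadjusted p under 0.05. For PUS1 this was set by the design, since the deletion lacks the native gene.

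**Figure D2:**
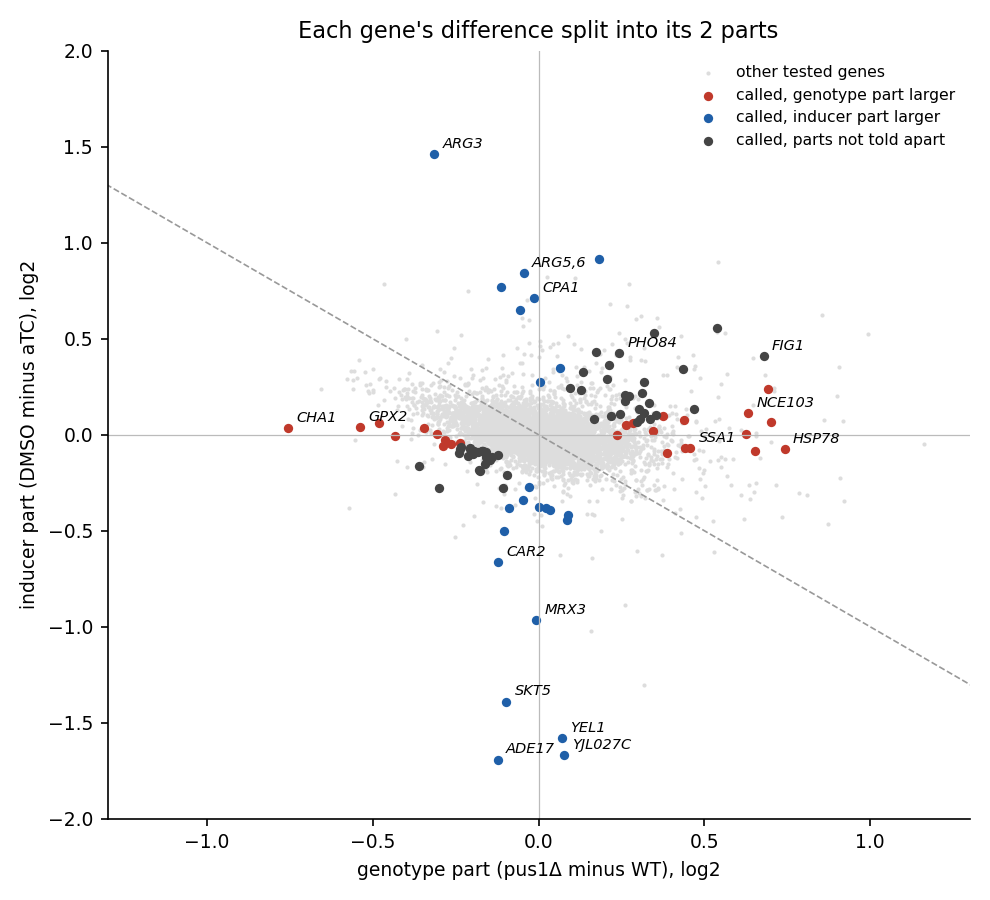
The x axis is the genotype part and the y axis the inducer part of each gene's log2 difference, and the 2 add up to the whole. Called genes are coloured by which part was larger, the dashed line marks parts that cancel, and PUS1 and YOR203W lie outside the range. ADE17, SKT5 and YEL1 lie near the vertical axis, ARG3 at the top left, and CHA1, GPX2 and HSP78 near the horizontal one.

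The largest differences with a standard gene symbol beside PUS1 were in genes that differed with the inducer. ADE17 (YMR120C, chromosome 13, 484159 to 485936) encodes an enzyme of the last steps of purine nucleotide synthesis. Its level was 32.1 and 28.7 CPM in the deletion with DMSO and 103 and 111 CPM in wild type with aTC. Of the other groups, the deletion with aTC had 95.1 and 98.5 CPM, while wild type with DMSO had 32.9 and 32.4 CPM, so both DMSO groups were low and both aTC groups high, without overlap. The difference was 3.52-fold (log2 -1.82, SE 0.0691, edgeR adjusted p = 8.28e-08), of which the genotype part was -0.12 and the inducer part -1.69. ADE17 was the one called member of the 20 tested genes of purine synthesis, whose median log2 was -0.09.

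SKT5 (YBL061C, chromosome 2, 98448 to 100536), which encodes an activator of the chitin synthase Chs3, and YEL1 (YBL060W, chromosome 2, 101062 to 103125), which encodes an exchange factor for the small GTPase Arf3, are divergent neighbours. SKT5 had 43.99 and 46.8 CPM in the deletion with DMSO against 131.4 and 123.3 CPM in wild type with aTC (log2 -1.49, SE 0.0621, edgeR adjusted p = 1.5e-07). YEL1 had 14.4 and 14.8 CPM against 41.7 and 41.4 CPM (log2 -1.51, SE 0.0659, adjusted p = 1.81e-07). Both followed the inducer, with inducer parts of -1.39 and -1.58 and genotype parts of -0.10 and 0.07. SKT5 overlaps another listed gene, so its value is less certain. MRX3, which encodes a mitochondrial protein, was lower too, at 3.38 and 4.32 CPM against 7.33 and 7.88 CPM (log2 -0.97, SE 0.12, adjusted p = 0.00243). The inducer part of MRX3 was also -0.97 and its genotype part -0.01, and this locus also overlaps another gene.

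Genes of arginine synthesis were higher in the deletion with DMSO: 5 of the 10 tested members were called higher and 0 lower by edgeR, against 0.843% of all tested genes called higher. At an unadjusted p under 0.05 there were 6 higher and 0 lower, and DESeq2 called 6 higher and 0 lower. All 10 members had a positive log2 value, with a median of 0.41 beside -0.0046 over all tested genes. The list was drawn up with earlier results of these libraries known, so its direction is not independent evidence. Without replicate 2 of wild type with aTC, 8 members were called, and without replicate 1 the median was 0.31. With overlapping genes left out, ARG5,6 among them, the median was 0.23 and 4 members were called.

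ARG3 (YJL088W, chromosome 10, 247230 to 248246), which encodes ornithine carbamoyltransferase, had 106 and 111 CPM in the deletion with DMSO and 41.95 and 56.0 CPM in wild type with aTC. It had 148 and 152 CPM in wild type with DMSO and 42.8 and 44.7 CPM in the deletion with aTC. Both DMSO groups were above both aTC groups, and wild type with DMSO was above the deletion with DMSO. The difference was 2.22-fold (log2 1.15, SE 0.104, edgeR adjusted p = 3.09e-04). Its parts had opposite signs, -0.31 for genotype and 1.46 for the inducer, so the whole was smaller than the inducer part.

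The other called members encode a bifunctional enzyme of the acetylated branch (ARG5,6), the small subunit of carbamoyl phosphate synthetase (CPA1), an acetylornithine aminotransferase (ARG8) and argininosuccinate synthetase (ARG1). ARG5,6 stood at 529 and 544 CPM in the deletion with DMSO against 270 and 348 CPM in wild type with aTC (log2 0.80, SE 0.0933, edgeR adjusted p = 0.00172). CPA1 stood at 698 and 736 CPM against 416 and 468 CPM (log2 0.70, SE 0.0698, adjusted p = 4.87e-04). ARG8 stood at 144 and 145 CPM against 96.5 and 95.7 CPM (log2 0.59, SE 0.0583, adjusted p = 4.87e-04). In these genes the groups were apart by more than the gap between replicates, and the inducer parts were 0.84, 0.71 and 0.65 with genotype parts of -0.04, -0.01 and -0.06. ARG1 had 469 and 462 CPM against 248 and 342 CPM (log2 0.66, SE 0.118, adjusted p = 0.0249), with replicate 1 of wild type with aTC far below replicate 2. ARG1 lost the call without either library of the deletion with DMSO, and also with the 4 libraries alone. Among the members that were not called were ARG2, for acetylglutamate synthase (log2 0.23, adjusted p = 0.0629), and ARG4, ARG7 and ORT1, with log2 values from 0.10 to 0.13.

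YOR302W, the short upstream reading frame of CPA1 through which arginine represses its translation, was higher as well, at 18.5 and 18.1 CPM against 7.14 and 10.02 CPM (log2 1.10, SE 0.202, edgeR adjusted p = 0.0265). It has no standard symbol, and its value was known when it was picked.

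In the list of arginine breakdown, uptake and control, 0 of 15 tested genes were called higher and 2 lower, with 2 higher and 3 lower at an unadjusted p under 0.05 and 1 higher and 2 lower by DESeq2. CAR2, for the ornithine transaminase of arginine breakdown, had 73.2 and 70.4 CPM in the deletion with DMSO and 125 and 122 CPM in wild type with aTC (log2 -0.78, SE 0.0779, edgeR adjusted p = 4.87e-04). CAN1, the arginine permease gene, picked with its value known, had 267 and 261 CPM against 325 and 352 CPM (log2 -0.36, SE 0.0611, adjusted p = 0.02). Their inducer parts were -0.66 and -0.38. Neither gene overlapped between the groups, which was also so for 53.4% of all tested genes. The CAR2 locus overlaps another listed gene, so its value is less certain. With overlapping genes left out, 1 member of the list was called. Of 45 other tested genes of amino acid synthesis under Gcn4, the activator of that pathway, edgeR called 0, with 4 higher and 6 lower at an unadjusted p under 0.05 and 1 higher and 4 lower by DESeq2. Their median log2 was -0.03.

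**Figure D3:**
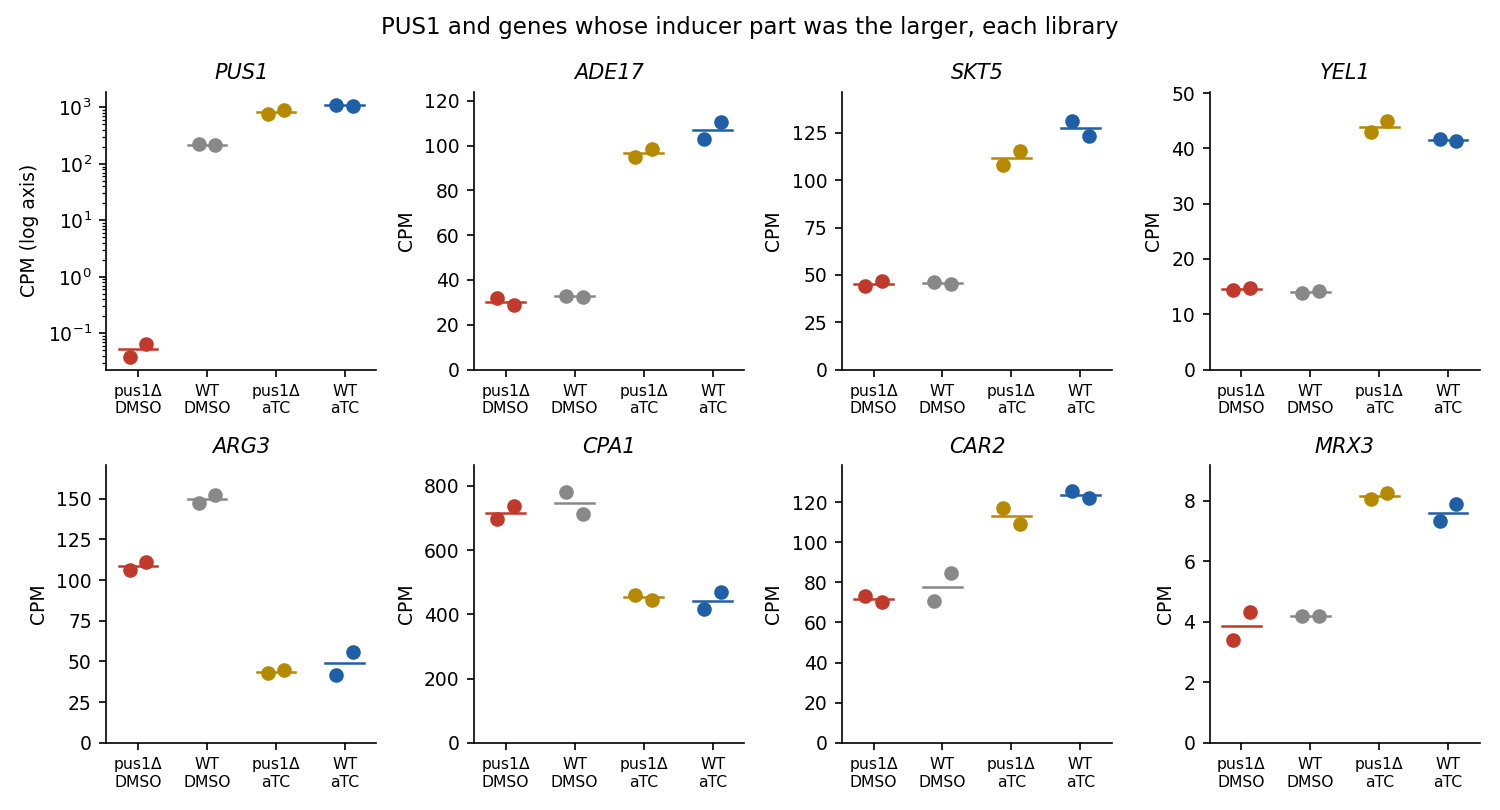
CPM of PUS1 (log axis) and 7 genes (linear axes from 0) whose inducer part was the larger, with a point per library and a line at the mean of each group. For ADE17, SKT5, YEL1, CAR2 and MRX3 both aTC groups lie above both DMSO groups, and for ARG3 and CPA1 below.

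Some genes at the integrated constructs, their markers and their neighbours were also lower in the deletion with DMSO. Of 12 tested, edgeR called 7 lower and 0 higher, beside 0.877% of all tested genes called lower, and 5 did not pass. At an unadjusted p under 0.05 there were 8 lower and 1 higher, and DESeq2 called 8 lower and 1 higher. The 7 include PUS1, which differs by design. YJL027C, a reading frame of unknown function beside RNR2, had 2.64 and 2.32 CPM against 8.21 and 6.66 CPM (log2 -1.59, SE 0.155, edgeR adjusted p = 4.87e-04), with an inducer part of -1.67. RNR2, for a small subunit of ribonucleotide reductase, whose promoter drives TetR-Tup1 in the construct, differed by less (log2 -0.26, adjusted p = 0.0322). RNR2 was called in the genotype part (-0.17, edgeR adjusted p = 0.0109) and not in the inducer part (-0.09, adjusted p = 0.228). URA3, the marker of the TetR construct, had 5.01 and 4.78 CPM against 7.499 and 7.37 CPM (log2 -0.60, SE 0.103, adjusted p = 0.02). TUP1, whose coding sequence is also part of the construct, had 772 and 813 CPM against 1002 and 1067 CPM (log2 -0.39, SE 0.0609, adjusted p = 0.0124), and DED1, an RNA helicase gene next to HIS3, had 551 and 571 CPM against 810 and 746 CPM (log2 -0.47, SE 0.0676, adjusted p = 0.00708). The reads do not tell the native TUP1 gene from the fusion. The inducer parts of URA3, TUP1 and DED1 were -0.50, -0.28 and -0.38, and their genotype parts -0.10, -0.11 and -0.09. RNR2 and DED1 overlap other listed genes, so their values are less certain.

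MRM1, for a mitochondrial rRNA methyltransferase on the other side of HIS3, had 47.6 and 46.3 CPM against 59.1 and 59.0 CPM (log2 -0.33, edgeR adjusted p = 0.0204). The inducer part of MRM1 was -0.42 and its genotype part 0.09, and the locus overlaps another listed gene. YOR203W, a dubious frame that overlaps DED1, had 0 reads in both libraries of the deletion with DMSO and 14 and 12 reads in wild type with aTC, so wild type with aTC was at least 8.68-fold higher against a floor of 3 reads over the group. NIP7 and LEA1, the neighbours of PUS1, encode a ribosome assembly factor and a spliceosome protein. NIP7 had a log2 of 0.24 (edgeR adjusted p = 0.0887) and LEA1 of -0.10 (adjusted p = 0.513), and neither passed the test, while NIP7 was called higher by DESeq2 (adjusted p = 0.0402). Without replicate 1 or without replicate 2 of the deletion with DMSO, 2 of the 12 genes were called. YOR203W and MRM1 were picked with their values known.

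A second set of genes differed with genotype, and those higher in the deletion with DMSO included heat shock and general stress genes. Of 40 tested general stress genes, 6 (15%) were called higher and 0 lower by edgeR, beside 0.843% of all tested genes called higher, and 13 were higher and 0 lower at an unadjusted p under 0.05. DESeq2 called 8 higher and 0 lower. Their median log2 was 0.18, with 31 members above 0 and 9 below. The 6 were HSP78, HSP104, NCE103, UBI4, YGP1 and ALD3. Of 28 tested chaperone genes under the heat shock factor Hsf1, 3 were called higher and 0 lower, SSA1 with HSP78 and HSP104, and the median log2 was 0.14. At an unadjusted p under 0.05, 13 of these were higher and 1 lower, and DESeq2 called 5 higher and 0 lower. The calls rested on both libraries of the deletion with DMSO. Without replicate 1 and without replicate 2 of it the stress list had 0 and 1 called members, and the chaperone list had 0 in either case. Without replicate 1 of wild type with aTC, 3 stress genes were called.

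HSP78 (YDR258C, chromosome 4, 950463 to 952898), a mitochondrial protein disaggregase, had 100.5 and 100.2 CPM in the deletion with DMSO and 63.0 and 63.4 CPM in wild type with aTC. In the deletion with aTC it had 98.2 and 118 CPM, and in wild type with DMSO 56.2 and 66.4 CPM, so both deletion groups were above both wild-type groups. The difference was 1.59-fold (log2 0.67, SE 0.0911, edgeR adjusted p = 0.0049), with a genotype part of 0.74 and an inducer part of -0.07. SSA1, a cytosolic Hsp70 chaperone, had 675 and 698 CPM against 539 and 511 CPM (log2 0.39, SE 0.0563, adjusted p = 0.00708), and unique alignment leaves it uncertain because SSA2 is nearly identical. HSP104, the cytosolic disaggregase, had 194 and 209 CPM against 164 and 147 CPM (log2 0.37, SE 0.0758, adjusted p = 0.0387). The genotype parts of SSA1 and HSP104 were 0.46 and 0.44. HSP82, an Hsp90 gene with a near-identical copy, had a mean of 257 CPM against 176 CPM and did not pass (log2 0.55, adjusted p = 0.0576).

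NCE103, for carbonic anhydrase, had 109 and 101 CPM against 56.7 and 68.4 CPM (log2 0.75, SE 0.144, edgeR adjusted p = 0.0317), with a genotype part of 0.63. Its replicates in the deletion with aTC were far apart, at 102 and 69.6 CPM. UBI4, the polyubiquitin gene, had 105 and 101 CPM against 74.3 and 77.7 CPM (log2 0.44, SE 0.056, adjusted p = 0.00332), and YGP1, for a cell wall glycoprotein made on starvation, had 20.8 and 20.9 CPM against 15.3 and 15.1 CPM (log2 0.46, SE 0.0817, adjusted p = 0.0247). For UBI4 and YGP1 the parts were not told apart, with genotype parts of 0.30 and 0.35 and inducer parts of 0.13 and 0.10. ALD3, a stress-induced aldehyde dehydrogenase gene, had 19.6 and 19.97 CPM against 14.6 and 16.2 CPM (log2 0.37, adjusted p = 0.0453). ALD3 kept its call in 1 of the 8 omissions of a library, that of replicate 2 of wild type with aTC, and lost it with the 4 libraries alone. HSP12, a membrane stress protein gene, had the largest log2 of the list, 1.48, at a mean of 1.87 CPM against 0.667 CPM, and did not pass (adjusted p = 0.0608). HSP82 and HSP12 are outside the rule for named genes and were picked with their values known.

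Lower with the deletion was CHA1 (YCL064C, chromosome 3, 35205 to 36287), the deaminase that breaks down serine and threonine. It had 91.5 and 90.6 CPM in the deletion with DMSO and 146 and 155 CPM in wild type with aTC (log2 -0.72, SE 0.0777, edgeR adjusted p = 8.76e-04). The deletion with aTC stood at 85.8 and 103 CPM and wild type with DMSO at 166 and 161, so both deletion groups were below both wild-type groups. The genotype part was -0.76 and the inducer part 0.03. GPX2, a glutathione peroxidase gene, had 68.3 and 65.3 CPM against 92.9 and 96.0 CPM (log2 -0.50, SE 0.0661, adjusted p = 0.00413). HPF1, for an abundant cell wall mannoprotein, had 2606 and 2514 CPM against 3381 and 3484 CPM (log2 -0.42, SE 0.069, adjusted p = 0.015).

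ABP140, for the tRNA methyltransferase Trm140, had 220 and 212 CPM in the deletion with DMSO against 301 and 285 CPM in wild type with aTC (log2 -0.44, SE 0.0588, edgeR adjusted p = 0.00425), with a genotype part of -0.43 and an inducer part of -0.01. It was the one called gene among 52 tested genes of tRNA modification, a share of 1.92% beside 1.72% of all tested genes. The calls of GPX2, HPF1 and ABP140, like those of HSP78, SSA1 and HSP104, were lost without either library of the deletion with DMSO, whereas CHA1 kept its call under every setting run. That of HSP104 was also lost with the 4 libraries alone.

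**Figure D4:**
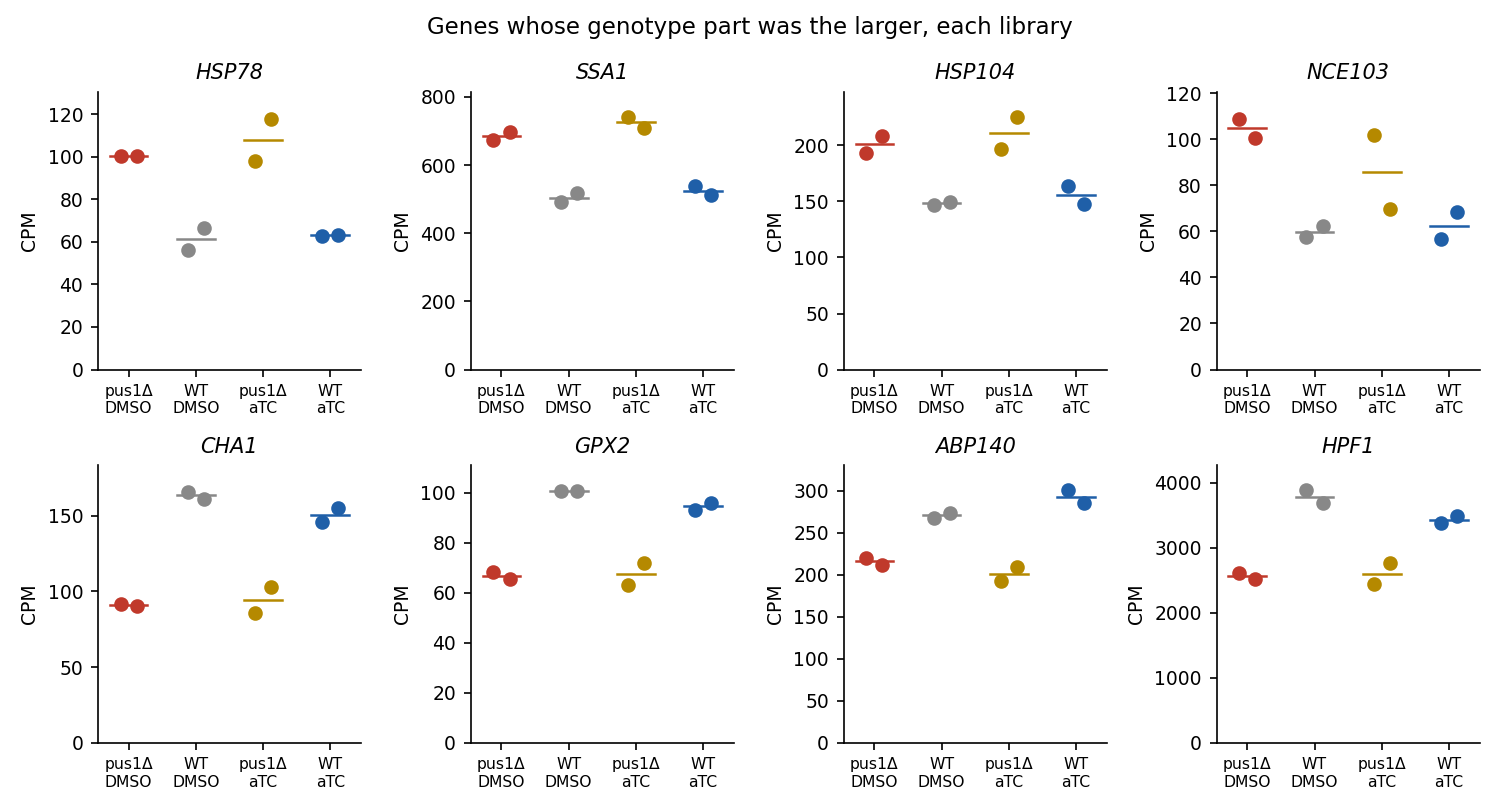
CPM (linear axes from 0) of 8 genes whose genotype part was the larger, with a point per library and a line at the mean of each group. HSP78, SSA1, HSP104 and NCE103 are higher and CHA1, GPX2, ABP140 and HPF1 lower in the 2 deletion groups than in the 2 wild-type groups.

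For PHO84, FIG1 and HVG1 the parts were not told apart, which does not show that both contributed. PHO84, the high-affinity phosphate transporter gene, had 99.4 and 90.6 CPM in the deletion with DMSO and 61.8 and 57.6 CPM in wild type with aTC (log2 0.67, SE 0.096, edgeR adjusted p = 0.00708). The other 2 groups had means between these, at 73.4 and 59.5 CPM in the deletion with aTC and 79.5 and 71.1 CPM in wild type with DMSO. Replicate 2 of the deletion with aTC lay within the range of wild type with aTC, and the parts were 0.24 and 0.43. FIG1, a membrane protein gene of mating, was called at low levels, 3.67 and 2.57 CPM against 1.59 and 1.31 CPM (log2 1.09, SE 0.202, adjusted p = 0.0276). FIG1 lost its call without replicate 1 of the deletion with DMSO, and so did PHO84, and FIG1 lost it with the 4 libraries alone. HVG1, a homologue of a nucleotide sugar transporter gene, was called at under 5 CPM with a log2 of 0.61 at a locus that overlaps another gene. The genotype part of HVG1 was 0.47 and its inducer part 0.14. KNH1, a cell wall glucan gene, and RRT6 were also called at low levels, under 7 CPM in every library, with log2 values of 0.63 and 0.77, and in both the genotype part was the larger. HVG1, KNH1 and RRT6 each lost the call without either library of the deletion with DMSO, without replicate 1 of wild type with aTC and with the 4 libraries alone. RRT6 and HVG1 also lost it without either library of the deletion with aTC, and HVG1 without either library of wild type with DMSO.

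Other called genes, picked with their values known, were spread over functions. PST1, for a secreted cell wall protein, had 159 and 163 CPM against 116 and 115 CPM (log2 0.48, SE 0.0548, edgeR adjusted p = 0.00161). PYC1, for pyruvate carboxylase, had a log2 of 0.50, AHP1, for a peroxiredoxin, of 0.44, and QCR9, for a subunit of respiratory complex III, of 0.43. The aminopeptidase gene AAP1 (log2 -0.36) and the nitric oxide oxidoreductase gene YHB1 (log2 -0.30) were lower. RNR4, the partner of RNR2 in ribonucleotide reductase, was lower at 345 and 321 CPM against 409 and 400 CPM (log2 -0.28, adjusted p = 0.0351).

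Among genes of carbon use, 33 glucose-repressed genes were tested, and edgeR called 2 higher and 1 lower, with a median log2 of 0.11. That is 9.09% of the list called, beside 1.72% of all tested genes. The higher ones were ALD3 and SIP4, an activator of gluconeogenic genes (log2 0.41, adjusted p = 0.0404), and the lower one was ALD6, an aldehyde dehydrogenase gene of acetate formation, with 1833 and 1875 CPM against 2360 and 2255 CPM (log2 -0.32, adjusted p = 0.0247). SIP4 and ALD6 lost the call without either library of the deletion with DMSO and without replicate 1 of wild type with aTC, and SIP4 also without replicate 1 of the deletion with aTC and with the 4 libraries alone. At an unadjusted p under 0.05, 10 glucose-repressed genes were higher and 2 lower, and DESeq2 called 3 higher and 1 lower. Their genotype part had 14 called higher and 1 lower (45.5%, beside 21.2% of all tested), and their inducer part 1 higher and 2 lower. Of 18 tested genes of glycogen and trehalose, edgeR called 0, with 5 higher and 1 lower at an unadjusted p under 0.05 and 0 higher and 1 lower by DESeq2. In that list the genotype part had a median of 0.23, with 11 genes called higher (61.1%, beside 10% of all tested), and the inducer part a median of -0.11, so the parts had opposite signs.

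The genes of ribosome assembly and translation had small negative medians and few calls by edgeR. Of all tested genes, 10.3% were lower at an unadjusted p under 0.05, and DESeq2 called 2.67% of those it tested lower. Of 120 tested ribosome biogenesis genes edgeR called 0, with 1 higher and 27 lower at an unadjusted p under 0.05, and DESeq2 called 1 higher and 2 lower. Their median log2 was -0.14, with 117 members below 0. Here again the parts had opposite signs: the genotype part had a median of -0.26 with 86 genes called lower and 1 higher (72.5% of the list, beside 21.2% of all tested), and the inducer part a median of 0.12 with 0 called. Set against each gene's mean over the 8 libraries, the list's median was -0.0107 and -0.0172 in the deletion with DMSO and 0.26 and -0.0305 in wild type with aTC, so 1 of the latter libraries lay beside the deletion and the other far from it. Without replicate 1 of wild type with aTC the median difference was 0.02, and without replicate 2 it was -0.27. The 2 remaining groups lay at -0.246 and -0.206 in the deletion with aTC, and at 0.19 and 0.0912 in wild type with DMSO.

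Of 138 tested cytosolic ribosomal protein genes, edgeR called 2 higher, RPL22A (log2 0.59) and RPL28 (log2 0.23), and 1 lower, RPL31B (log2 -0.28), with a median of -0.11. The edgeR calls were 2.17% of the list, beside 1.72% of all tested genes. At an unadjusted p under 0.05 there were 6 higher and 53 lower, and DESeq2 called 3 higher and 16 lower. Over all tested genes, 10.3% were lower at that p and 2.67% were called lower by DESeq2, so more of this list was lower by both measures. RPL22A and RPL31B have near-identical copies and RPL22A and RPL28 overlap other genes, so these values are uncertain. Without replicate 1 of wild type with aTC, or without replicate 2 of the deletion with DMSO, 0 of the 138 were called, and without replicate 2 of wild type with aTC 10 were. Of 21 tested aminoacyl-tRNA synthetase genes edgeR called 0, all 21 had a negative log2 value (median -0.11), 6 were lower at an unadjusted p under 0.05, and DESeq2 called 5 lower. Of 37 tested proteasome genes edgeR called 0 higher and 2 lower, PRE7 (log2 -0.27) and RPN5 (log2 -0.31), which is 5.41% beside 1.72% of all tested genes. At an unadjusted p under 0.05, 0 were higher and 15 lower, and DESeq2 called 0 higher and 4 lower. Of the 37, 35 had negative values, and the median was -0.11. With library size as the only scaling, with the 4 libraries alone, or without either library of the deletion with DMSO, 0 proteasome genes were called. Without any one library of the deletion with aTC or of wild type with DMSO, or without replicate 1 of wild type with aTC, 1 was called. The small negative medians moved with the scaling, and with library size only they were -0.0644 for ribosomal proteins, -0.0625 for the synthetases and -0.0669 for the proteasome. For the ribosome biogenesis list the median was then -0.0929.

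**Figure D5:**
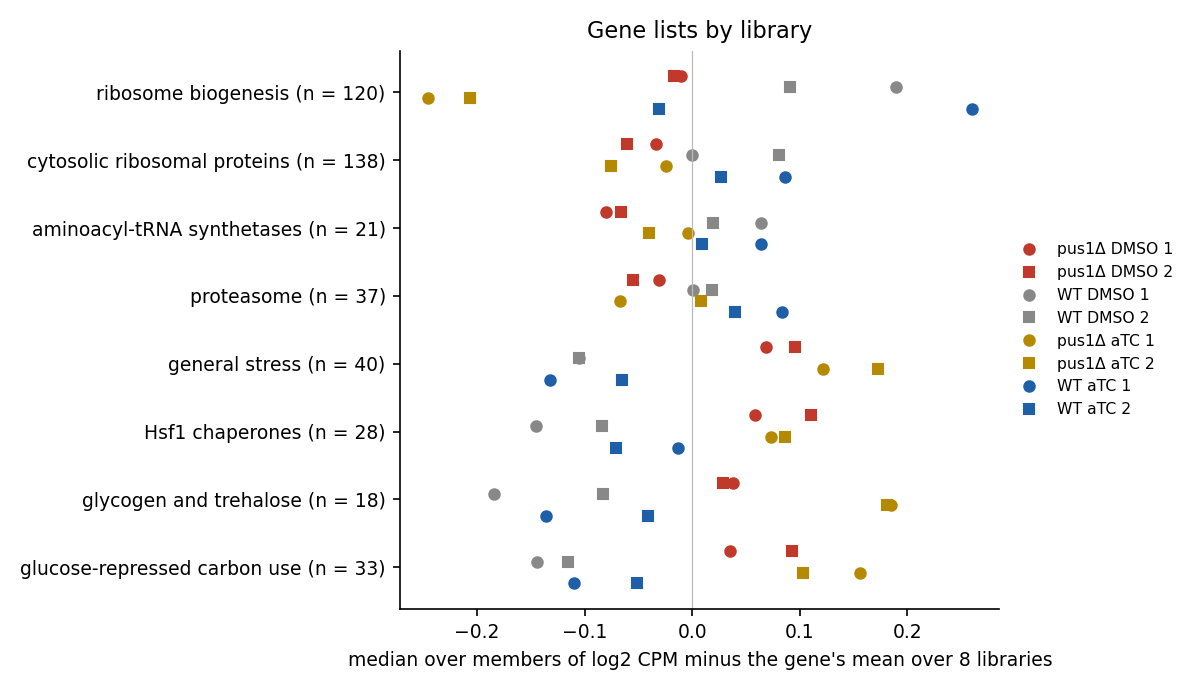
For each gene list, the x axis gives the median over its tested members of log2 CPM minus the gene's mean over the 8 libraries, with a point per library and a colour per group. The ribosome biogenesis points of wild type with aTC lie far apart, at 0.26 and -0.0305, while both points of the deletion with DMSO lie near 0.

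Apart from PUS1, the pseudouridine synthase genes did not pass the test of the whole difference. In the list of 10, PUS1 was the one called by edgeR and by DESeq2, and at an unadjusted p under 0.05 CBF5 joined it. CBF5, the synthase of the H/ACA particles that are guided by small nucleolar RNAs, had 818 and 831 CPM in the deletion with DMSO against 945 and 899 CPM in wild type with aTC (log2 -0.16, SE 0.0589, edgeR adjusted p = 0.166). PUS2, the paralogue of PUS1, had 22.5 and 25.2 CPM against 23.7 and 22.0 CPM, so the groups overlapped (log2 0.06, SE 0.0856, adjusted p = 0.731). PUS7, which modifies tRNA, small nuclear RNA and messenger RNA, had 238 and 236 CPM against 271 and 239 CPM (log2 -0.10, SE 0.0667, adjusted p = 0.412). PUS4, PUS5, PUS6, PUS9, RIB2 and DEG1, which act on other tRNA or rRNA sites, had log2 values from -0.15 to 0.17 with standard errors from 0.0634 to 0.142. These values do not show that the levels were equal. In the genotype part, 4 of the 10 were called lower (40%, beside 11.2% of all tested): PUS1, CBF5 (log2 -0.19, edgeR adjusted p = 0.0122), PUS4 (-0.17, adjusted p = 0.031) and PUS7 (-0.16, adjusted p = 0.035). Of the 6 tested genes of the H/ACA particle edgeR and DESeq2 called 0, with 0 higher and 2 lower at an unadjusted p under 0.05.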

How the data were processed

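Per the file headers, the authors deposited raw counts of reads per gene, made with featureCounts 2.0.1 on exons. Alignment was with STAR, per the submitters' processing notes, and its version and the genome build are not given in the sources used here. The library kit was directional per the labels' protocols, but the headers show no strand option, so opposite-strand reads can be counted and 1464 of 6663 genes (22.0%) that overlap another are uncertain. Symbols came from RefSeq (assembly R64), which matched 5931 identifiers, and the other 732 kept systematic names.

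Counts were tested in R 4.3.3 with edgeR 4.0.16 (quasi-likelihood F test, TMM factors 0.963 to 1.05, filterByExpr, 1 mean per group over all 8 libraries, 4 residual degrees of freedom, no block). The filter removed 731 genes, and Benjamini-Hochberg adjustment ran over the 5932 tested. The biological coefficient of variation was 5.44%. Standard errors are the log2 fold change over the square root of F. DESeq2 1.42.0 was an alternative, with other scalings, no filter, only the 4 libraries, a replicate block and each library left out. Scripts were tested on simulated data.

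The comparison, members and 40 gene lists were chosen with earlier results of these data known. Genes were named by a rule: the 12 largest called differences each way with a standard symbol and no overlap between groups, up to 4 called members of each list with at least 3, and fixed genes (PUS1, other synthases, markers, neighbours, the arginine list). ADE17, YEL1, SKT5, MRX3 and CAR2 were also fixed, and were in a list of genes that responded to aTC in both strains in earlier results. Their direction here is therefore not independent evidence. The test of whether the aTC response differed between strains was added after the data were seen. Intervals cover counting error only. No sequences are shown, since coordinates of the files and of R64 differ.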

Additional observations from a re-analysis of the deposited data

Results flagged for a closer look

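The response of PUS1 to aTC (aTC minus DMSO) differed between the strains, being larger in the deletion than in wild type by 11.56 on the log2 scale by edgeR. This was flagged as a difference between groups in a test of the difference itself. The deletion lacks the native gene, so a difference on this scale was set by the design. Mean PUS1 was 0.0518 CPM with DMSO and 838 CPM with aTC in the deletion. In wild type it was 218 CPM with DMSO and 1101 CPM with aTC. The deletion with DMSO had 2 and 4 reads of PUS1, so the size also depends on the prior count and on few reads.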

How the results depend on the processing

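The count of 102 genes was 100 with median-of-ratios factors, 119 with library size only, 105 with no filter, 76 with the 4 libraries alone (58 shared), 83 without overlapping genes and 264 with DESeq2. Leaving out 1 library gave 16 to 411 for the whole difference, 99 to 1746 for the genotype part, 20 to 551 for the inducer part (224 with DESeq2) and 123 to 1596 for the difference of the parts. With library size only, the genotype part called 1619 genes, 82.8% of them higher. Of 37 named called genes, 12 kept the call under every setting run for them: PUS1, ADE17, YEL1, SKT5, YJL027C, MRX3, CAR2, CHA1, ARG3, ARG5,6, CPA1 and ARG8. Replicate numbers did not pair the samples (correlations of deviations from -0.156 to 0.143 between groups), and a replicate block called 91 genes, 82 of them shared, with 3 named calls lost (ALD3, RPL28 and RPL31B). Some uncalled genes changed sign. With library size only, PUS9 was at 0.0440 and RIB2 at 0.0155. Over the single-library omissions ARG4 ran from -0.0732 to 0.367, ORT1 from -0.0174 to 0.227, PUS2 from -0.0248 to 0.142, PUS4 from -0.172 to 0.0053 and PUS9 from -0.0667 to 0.0679. The cause was not tested. With 2 libraries a side the median standard error of a log2 difference was 0.0719, and genes under 1 CPM rest on few reads.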

Other observations

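Among the called genes, 5 pairs were direct neighbours, 10 of the 102 genes in all. How many such pairs 102 randomly placed genes would give was not computed. SKT5 and YEL1, whose frames are 525 bp apart on chromosome 2, were lower in the deletion with DMSO by similar amounts (log2 -1.49 and -1.51). SIP4 and ARG3 on chromosome 10 are 380 bp apart and were both higher, by 0.41 and 1.15. YOR302W and CPA1 on chromosome 15 are 56 bp apart and were both higher, by 1.10 and 0.70. Since YOR302W is the upstream reading frame of CPA1, this pair does not stand for 2 separate genes. YJL027C and RNR2, 152 bp apart on chromosome 10, were lower by unequal amounts (log2 -1.59 and -0.26), and YOR203W overlaps DED1. Each pair had the same sign in the whole difference, but not always in its parts. The genotype parts were -0.10 for SKT5 and 0.07 for YEL1, and 0.06 for SIP4 and -0.31 for ARG3. They were 0.18 for YOR302W and -0.01 for CPA1. Of these, only that of ARG3 passed (edgeR adjusted p = 0.0154). YJL027C and RNR2 differed in both parts. YJL027C had an inducer part of -1.67 and a genotype part of 0.08, while RNR2 had -0.09 and -0.17. Whether reads of one gene are counted to its neighbour was not tested.

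Genes of meiosis and of haploid cells were read as other cell states. Of 23 tested meiotic genes edgeR and DESeq2 called 0, with 4 higher and 0 lower at an unadjusted p under 0.05 and a median log2 of 0.19. In this list 22 members lay above 0 and 1 below. SLZ1 and SPO23, sporulation genes outside the list and picked with their values known, were called higher. Their log2 values were 0.57 and 0.46 (edgeR adjusted p = 0.0447 and 0.0317). Of 22 tested haploid-specific genes edgeR and DESeq2 called 0, with 4 higher and 0 lower at an unadjusted p under 0.05 and a median of 0.11. Of these, 15 lay above 0 and 7 below. RME1, a repressor of meiosis made in haploid cells, had a mean of 0.819 CPM in the deletion with DMSO against 0.425 CPM in wild type with aTC and did not pass (log2 0.93, adjusted p = 0.1).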
